A study of Bos taurus with 12 samples.

Results

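The carnitine shuttle is the set of enzymes and carriers that moves fatty acyl groups into mitochondria and exchanges short acyl groups between carnitine and coenzyme A. Its 7 genes on the array, CPT1A, CPT1B, SLC25A20, CPT2, CRAT, CROT and SLC22A5, were selected by their role together with values of REST against CONT in these same samples, the change of CPT1A being known. Their changes between REST and CONT are therefore a description and no p-value is given for them. They are 7 of the 12787 genes that a probe symbol covered.

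RNA came from mammary gland biopsies of multiparous midlactation Holstein cows, taken at day 0, while the cows ate a lactation diet freely (CONT, n = 6), and at day 6 of a feed allowance cut to 50% of the net energy needed for lactation (REST, n = 6). The same 6 labelled cows gave both biopsies, always from one breed and one tissue, and the CONT biopsy always came first, so that period and time cannot be told apart. The series description counts 1 cow fewer than the labels. The study's methods exclude 1 Holstein cow for mastitis, without naming it, but give 12 arrays. Values were therefore also computed without each cow. Each of the 12 samples was hybridised to its own one-colour array, and each cow had its CONT and REST arrays on the same slide. Slide 1 held cows 1 and 2, slide 2 held cows 3 and 4, and slide 3 held cows 5 and 6. A biopsy is a mixture of cell types, and more or fewer cells of a type and more or less RNA per cell cannot be told apart in it.

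Long-chain fatty acids cannot cross the inner mitochondrial membrane as coenzyme A esters. Carnitine palmitoyltransferase 1 on the outer membrane passes the acyl group to carnitine, the carrier encoded by SLC25A20 exchanges the acylcarnitine for free carnitine, and carnitine palmitoyltransferase 2 on the inner membrane returns the acyl group to coenzyme A for beta-oxidation. The first step is inhibited by malonyl-CoA, the building block of fatty acid synthesis, a pathway that is highly active in the lactating gland and there draws largely on acetate. CRAT and CROT act on short and medium chains, and SLC22A5 brings carnitine into the cell.

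The signal of a probe is given below as its log2 intensity minus the 75th percentile of the array, so that 0 is the level of that percentile and 1 unit is a doubling. A change is REST minus CONT of the same cow on this scale, with its mean and SD over cows. Signals of different probes are not set against each other, because probes differ in their brightness per transcript. The overall signal was lower on slide 3, where the 75th percentile lay between 73.2 and 117 intensity units against 252 to 390.0 on slides 1 and 2. In 6 of 6 cows the REST array was the brighter before normalization, the log2 difference being 0.30 ± 0.096 (SD, n = 6), and the subtraction removes it. The milk protein genes CSN1S1 and CSN3 had mean normalized signals of 9.79 and 9.98 in CONT, so that defining markers of the labelled tissue were present at high signal.

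Among the shuttle genes, CPT1A and SLC25A20 had higher signals in REST in every cow, CROT in 5 of 6 cows, and CRAT, CPT2 and SLC22A5 had lower mean signals. CPT1B, the muscle form of the first enzyme, was too dim to be tested. Of the 14 probes for the 7 genes, 8 were tested, which required a signal well above background on every array of at least 1 group. For 6 genes at least 1 probe was tested, 3 with a higher and 3 with a lower mean signal in REST, and their median change was 0.32 against -0.009 over all 7930 tested genes. CPT1A and CROT passed this filter only through REST, the group in which they were brighter, so this median is not a test.

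**Figure D1:**
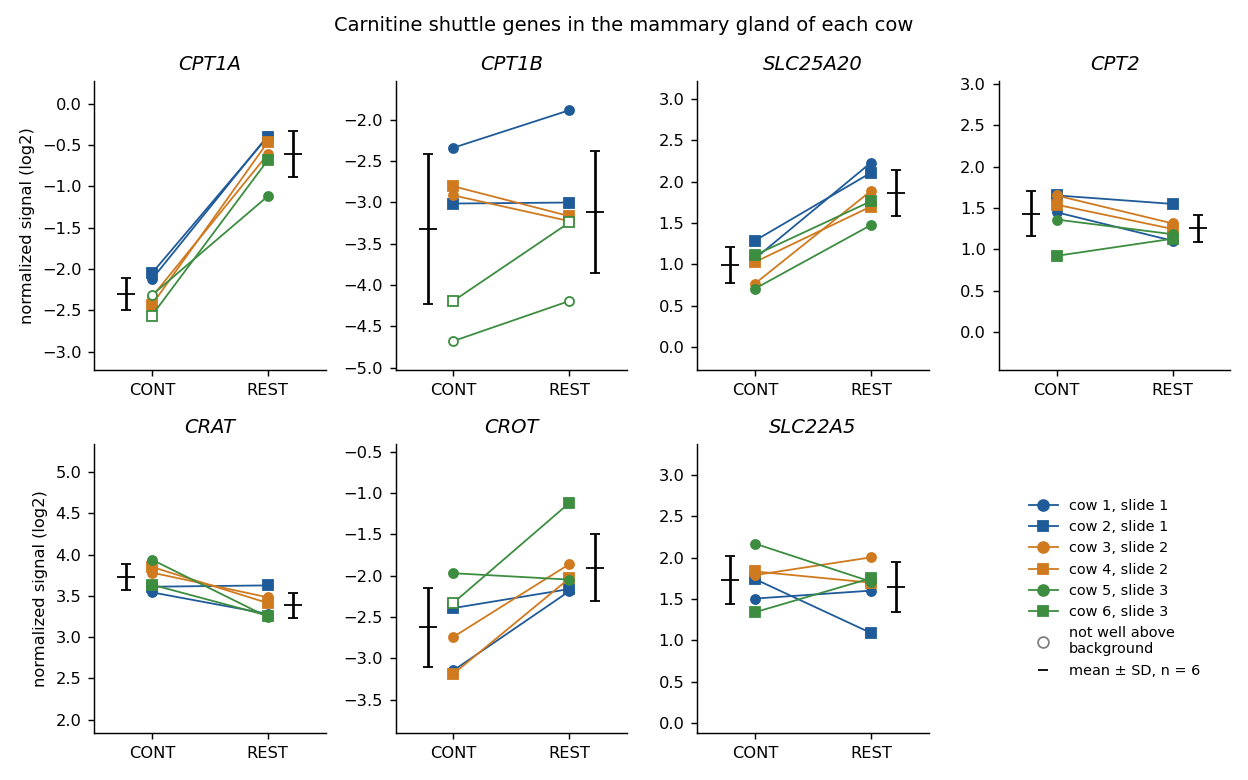
Normalized signal (log2, relative to the 75th percentile of the array) of the brightest probe of each shuttle gene in CONT and REST, 1 line per cow, with the mean and SD over 6 cows at the sides and open symbols for arrays not well above background. Every panel spans the same range of log2 units, and CONT and REST do not overlap for CPT1A and SLC25A20.

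CPT1A (NM_001304989), the liver-type isoform of the first and rate-controlling enzyme, had a higher signal in REST in all 6 cows. Its change was the largest of the tested shuttle genes with the 75th percentile shift, but under normexp with that shift it was 0.72 and that of SLC25A20 0.81. Under normexp with quantile normalization the values were 0.81 for CPT1A and 0.74 for SLC25A20. In CONT its normalized signal was -2.12, -2.05, -2.34, -2.43, -2.32 and -2.56 in cows 1 to 6. In REST it was -0.39, -0.40, -0.61, -0.46, -1.12 and -0.68 in the same order. The lowest REST value, in cow 5, was above the highest CONT value, in cow 2, so that the groups did not overlap.

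The mean CPT1A signal was -2.31 ± 0.19 in CONT and -0.61 ± 0.28 in REST (SD, n = 6). The change was 1.69 ± 0.27, a 3.23-fold higher signal, and ranged from 1.20 in cow 5 to 1.97 in cow 4. By slide it was 1.69, 1.85 and 1.54, so that it did not rest on any one slide. Leaving out 1 cow at a time moved the mean between 1.64 and 1.79.

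The CONT arrays of cows 5 and 6 did not reach the background criterion for CPT1A, while the other 4 CONT arrays and 6 of 6 REST arrays did. In intensity units CPT1A went from 65.7 to 266 in cow 1, from 73.5 to 295 in cow 2, from 59.0 to 219 in cow 3 and from 46.7 to 223 in cow 4. In cows 5 and 6, on the dimmer slide, it went from 17.2 to 53.8 and from 12.4 to 54.2. Over cows 1 to 4, with every array above background, the change was 1.77 ± 0.14 (3.41-fold), as large as with the dim slide included.

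CPT1A was dim in CONT, and its fold change depended on the processing of the intensities. The normexp setting started from median spot intensities and added an offset of 50 intensity units to every spot. Under it the mean change was 0.72 after the 75th percentile shift and 0.81 after quantile normalization. Which of its steps lowered the change was not tested. The offset is of the order of the CONT intensities in cows 1 to 4 and exceeds those in cows 5 and 6. A second CPT1A probe was not well above background on any array (0 of 6 in CONT, 0 of 6 in REST), and its change of 0.57 ± 0.77, from -0.44 to 1.40, is one between background-level signals.

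CPT1B (NM_001034349), the isoform known from muscle, had 3 probes and no tested one. Its brightest probe was above background on 4 of 6 CONT arrays and 4 of 6 REST arrays, those of slides 1 and 2. There the changes were 0.45, 0.01, -0.31 and -0.36 in cows 1 to 4, without a common direction. The mean over 6 cows, 0.20 ± 0.51, was 0.68 under quantile normalization. It was -0.17 under normexp with the 75th percentile shift and 0.11 under normexp with quantile normalization. The other probes were above background on 0 arrays of either group. A biopsy can hold muscle, and of 12 skeletal muscle markers 3 were tested, with 0 called in either direction in the limma fit and 0 at an unadjusted p under 0.05, which 16.9% of all tested genes reached. The creatine kinase CKM was called lower when the cow was a block, as were 9.27% of all tested genes. Among the untested ones the slow myosin MYH7 was above background on 4 of 6 arrays of each group, MYH2 and MYL1 on 2 of 6, TNNT3 on 1 CONT and 2 REST arrays and MB on 1 REST array, while MYH1 and TNNC2 were so on 0 arrays. The mean level over the 3 tested markers was 0.46 to 0.73 in CONT and 0.42 to 0.85 in REST.

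SLC25A20 (NM_001077936), the carnitine-acylcarnitine carrier of the inner membrane, was measured by 1 probe that was well above background on all 12 arrays. Its normalized signal in CONT was 1.07, 1.29, 0.77, 1.03, 0.71 and 1.11 in cows 1 to 6. In REST it was 2.23, 2.11, 1.89, 1.70, 1.48 and 1.76. Cow 5 had the lowest value in both periods, and again the groups did not overlap.

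The mean SLC25A20 signal was 0.996 ± 0.22 in CONT and 1.86 ± 0.28 in REST (SD, n = 6), and the change was 0.87 ± 0.22 (1.82-fold), from 0.65 in cow 6 to 1.16 in cow 1. By slide the change was 0.99, 0.90 and 0.71. In contrast to CPT1A, the change of this brighter probe was hardly moved by normexp, being 0.81 with the 75th percentile shift and 0.74 with quantile normalization. Leaving out 1 cow gave 0.81 to 0.91.

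CPT2 (NM_001045889), the inner membrane enzyme that completes the transfer, had CONT signals of 1.45, 1.65, 1.65, 1.54, 1.36 and 0.92 in cows 1 to 6 and REST signals of 1.105, 1.55, 1.31, 1.25, 1.18 and 1.13. Cow 6 was the lowest in CONT and the only cow with a higher signal in REST, and the groups overlapped. The change was -0.17 ± 0.21 (SD, n = 6), from -0.34 in cow 1 to 0.21 in cow 6. A dimmer CPT2 probe, above background on 4 of 6 arrays of each group and not tested, had a change of -0.57 ± 0.58, also negative in 5 of 6 cows.

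**Figure D2:**
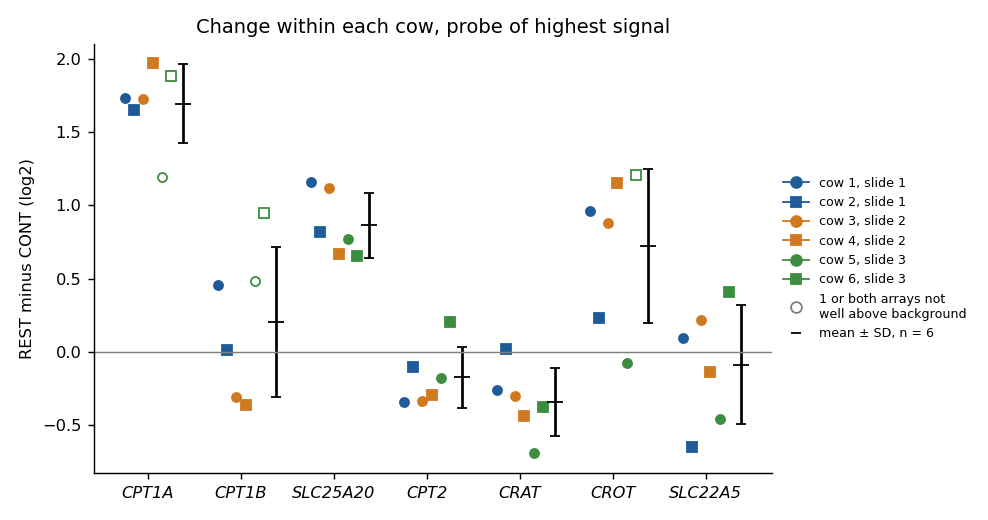
REST minus CONT (log2) of the brightest probe of each shuttle gene, 1 symbol per cow, with the mean and SD over 6 cows and open symbols where 1 or both arrays of the cow were not well above background. CPT1A and SLC25A20 lie above 0 in all 6 cows, and cow 5 has the smallest change of CPT1A and CROT and the most negative change of CRAT.

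CROT (NM_177494), the carnitine octanoyltransferase of peroxisomes that prepares shortened chains for export to mitochondria, was dim. Its CONT signals were -3.15, -2.39, -2.74, -3.19, -1.97 and -2.33 in cows 1 to 6, and its REST signals were -2.19, -2.16, -1.86, -2.03, -2.05 and -1.12. The groups overlapped through cow 5, which had the highest CONT value and a change of -0.08. The mean change was 0.73 ± 0.53 (SD, n = 6), up to 1.21 in cow 6, whose REST value stood apart from the other REST values. Under normexp the change was 0.14 after the 75th percentile shift and 0.36 after quantile normalization. A second CROT probe was above background on 0 of 6 CONT arrays and 1 of 6 REST arrays.

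CRAT (NM_001075587), carnitine acetyltransferase, moves acetyl groups between coenzyme A and carnitine in mitochondria and peroxisomes. Its CONT signals were 3.54, 3.61, 3.78, 3.85, 3.94 and 3.64 in cows 1 to 6, and its REST signals were 3.28, 3.63, 3.48, 3.41, 3.24 and 3.26. Cow 2 had nearly the same signal in both periods, and its REST value lay within the CONT range. The change was -0.34 ± 0.23 (SD, n = 6), from -0.69 in cow 5 to 0.02 in cow 2. The other CRAT probe, also tested, was lower in REST in 6 of 6 cows with a change of -0.43 ± 0.26.

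SLC22A5 (NM_001046502), the sodium-dependent carnitine transporter of the plasma membrane also known as OCTN2, had no common direction over cows. Its CONT signals were 1.51, 1.74, 1.79, 1.83, 2.17 and 1.34 in cows 1 to 6, and its REST signals were 1.60, 1.09, 2.005, 1.70, 1.71 and 1.75. The signal was higher in REST in 3 cows and lower in 3, with a mean change of -0.09 ± 0.41 (SD, n = 6) and of 0.03 without cow 2. A second tested probe had a change of -0.13 ± 0.16, negative in 5 of 6 cows.

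**Figure D3:**
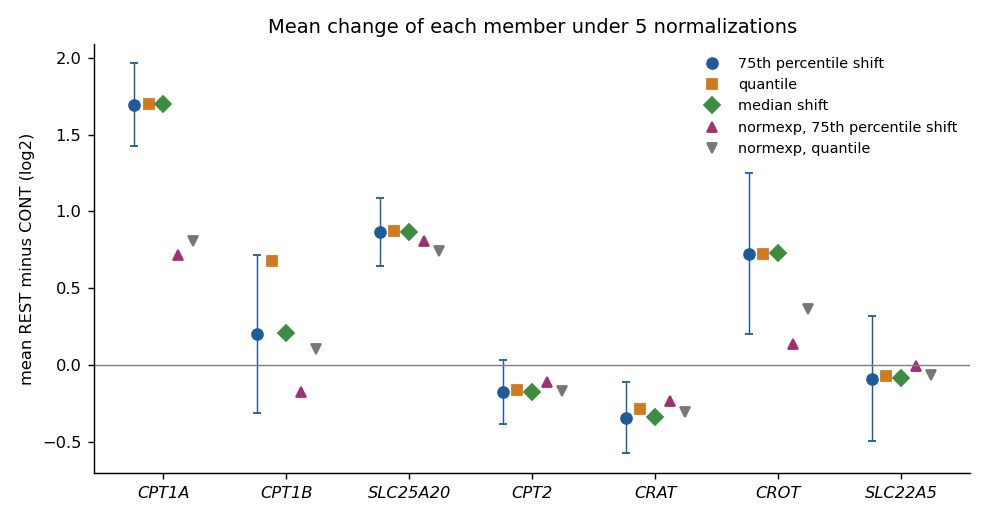
Mean REST minus CONT (log2) of the brightest probe of each shuttle gene under 5 normalizations, with the SD over 6 cows on the 75th percentile shift. Normexp brings CPT1A from 1.69 to 0.72 and 0.81 and CROT from 0.73 to 0.14 and 0.36, and leaves SLC25A20 at 0.81 and 0.74.

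In the limma fit over all 19403 tested probes, with Benjamini-Hochberg adjustment and a threshold of 0.1, CPT1A and SLC25A20 were called higher in REST and no shuttle gene was called lower by its brightest probe. Over all tested genes, 1.59% were called higher and 2.81% lower in this fit. Since the shuttle genes were chosen on this contrast, nothing is read from their count beside these shares. SLC25A20 was called under 18 of 18 alternatives. CPT1A was called under the 17 that tested it, the requirement of a signal above background on all 12 arrays having removed it. These alternatives refit the values on which the genes were chosen. They describe the dependence on processing and are not a test of the genes.

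With the cow as a block in the fit, which sets the periods against each other within animals, 4 shuttle genes were called, with CROT added among the higher and CRAT among the lower genes, against 6.94% of tested genes called higher and 9.27% lower. The count fell to 2 without cow 1 and to 2 without cow 4. The CRAT call was lost without any one of cows 1, 3, 4, 5 and 6. Without the block the second CRAT probe was called and the brightest one was not.

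The groups did not overlap, with REST above CONT, for CPT1A and SLC25A20, as for 0.605% of tested genes. Both were higher in 6 of 6 cows, which held for 7.49% of tested genes, and 10.8% were lower in 6 of 6 cows, among them no shuttle gene by its brightest probe. The choice of the genes fixed these counts as well.

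Genes outside the shuttle whose changes over the 6 cows were closest to those of CPT1A were NXPH3, C3, SUSD2, GALNT15 and SCNN1G. The root mean square difference to CPT1A was 0.45 for NXPH3 and 0.65 for SCNN1G, and 0.52, 0.54 and 0.55 for C3, SUSD2 and GALNT15, over 6 cows. Mean changes were 1.78 for NXPH3, a neurexophilin, 1.62 for C3, the central complement protein, and 1.27 for SCNN1G, a subunit of the epithelial sodium channel. Among the shuttle genes themselves SLC25A20 was the closest at 0.89 and CROT followed at 1.01, while CRAT was the farthest at 2.05. The measure weighs size as well as pattern, and is a description. It rests on CPT1A changes that include the CONT arrays of cows 5 and 6, not well above background, and that are smaller under normexp, and was not recomputed under it.

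Around the shuttle, PRKAA2, ACSS1 and ACSS2 were called lower in REST, and SCP2, KLF11 and ANGPTL4 higher. By the brightest probe, 3 genes were called higher and 3 lower of 52 tested (5.77% each, against 1.59% and 2.81% of all tested genes) over 6 lists that hold other carnitine transport and synthesis genes, malonyl-CoA supply and removal, acyl-CoA supply, mitochondrial and peroxisomal beta-oxidation and a PPAR alpha program. With the cow as a block 4 were called higher (7.69%) and 9 lower (17.3%), against 6.94% and 9.27%. These lists were written with earlier results of these data known, so nothing is read from their shares.

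**Figure D4:**
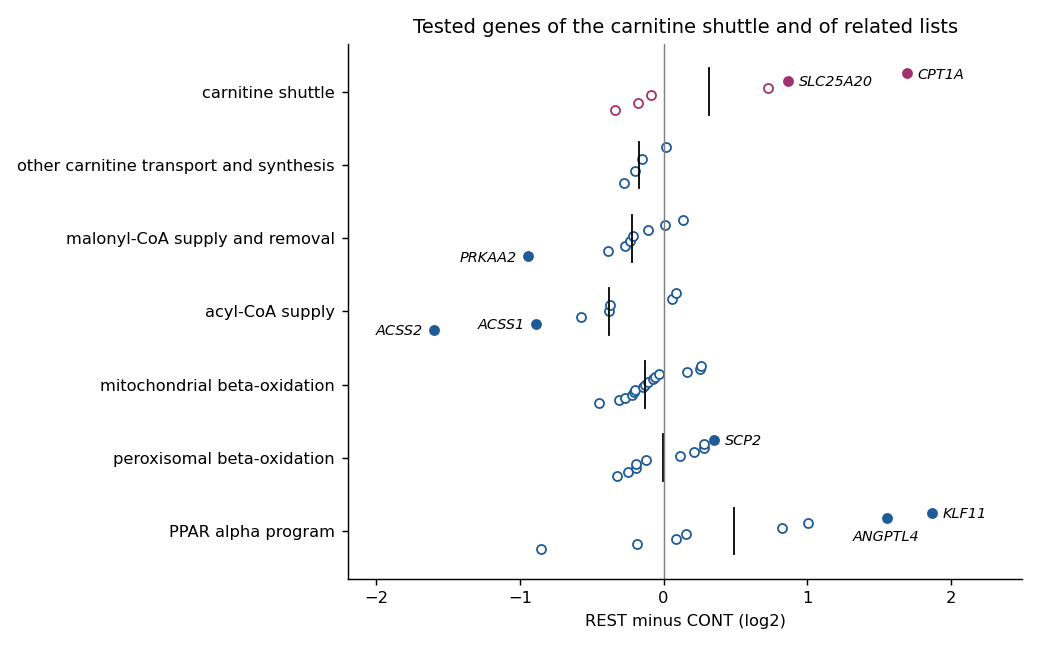
REST minus CONT (log2) of the brightest tested probe of each gene in the shuttle and in 6 related lists, with filled symbols for genes called without the block (adjusted p below 0.1) and a black bar at the median of each list. Mitochondrial beta-oxidation has its 15 tested genes between -0.45 and 0.26 with 0 called, while CPT1A lies at 1.69.

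Of 8 further genes of carnitine transport and synthesis, 4 were tested and 0 were called in either direction, with 0 at an unadjusted p under 0.05 in limma and 0 with the cow as a block. At the shares of all tested genes, 4 genes would hold less than 1 call, so this count says little. Their changes lay between -0.27 for SLC22A16, a carnitine transporter, and 0.02 for ALDH9A1, a dehydrogenase of carnitine synthesis. BBOX1, the enzyme of the last synthetic step, was above background on 0 of 6 CONT arrays and 2 of 6 REST arrays.

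Among genes that make, remove or control malonyl-CoA, 8 of 10 were tested and 1 was called lower, where 2.81% of all tested genes were. PRKAA2, a catalytic subunit of the AMP-activated kinase that phosphorylates acetyl-CoA carboxylase, fell from -0.78 ± 0.16 to -1.73 ± 0.38 (SD, n = 6), a change of -0.95 (limma adjusted p = 0.0114), lower in 6 of 6 cows. The carboxylases ACACA and ACACB had changes of -0.39 (adjusted p = 0.402) and -0.21 (adjusted p = 0.551). For ACACA these are values of the brightest of 3 tested probes, lower in 6 of 6 cows. It was called lower with the cow as a block, as were 9.27% of all tested genes. The other ACACA probes were called lower without the block, with changes of -0.89 (limma adjusted p = 0.0112) and -0.95 (limma adjusted p = 0.0323). They too were lower in 6 of 6 cows, so that the probes differed in size and not in direction. MLYCD, which degrades malonyl-CoA, had a change of 0.13. The list's median change was -0.22.

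Genes that supply acyl-CoA had a median change of -0.38, and 2 of the 7 tested were called lower, where 2.81% of all tested genes were. ACSS2, the cytosolic acetyl-CoA synthetase, fell from 5.65 ± 0.40 to 4.05 ± 0.57 (SD, n = 6), a change of -1.60 (limma adjusted p = 0.00774). ACSS1, its mitochondrial counterpart, fell by 0.89 (limma adjusted p = 0.0064). Both were lower in 6 of 6 cows. The long-chain synthetase ACSL1, whose product is the substrate of CPT1A, had a change of -0.38 (adjusted p = 0.261), and DBI, the acyl-CoA binding protein, one of -0.57 (adjusted p = 0.13). Both were called lower with the cow as a block, as were 9.27% of all tested genes. For ACSL3 the brightest probe was not called, at -0.37 (adjusted p = 0.239), and a second one was, at -0.67 (limma adjusted p = 0.0497).

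The mitochondrial beta-oxidation enzymes, which take over the acyl-CoA that CPT2 releases, had changes by their brightest probes that were all smaller in size than that of SLC25A20. Of 16 genes 15 were tested, 3 with a higher and 12 with a lower mean signal in REST, and 0 were called by that probe in the limma fit, with 4 at an unadjusted p under 0.05, a limit that 16.9% of all tested genes passed. The median change was -0.13. The changes ran from -0.45 for ETFA, a subunit of the electron transfer flavoprotein (adjusted p = 0.169), to 0.26 for ACADVL, the very long-chain acyl-CoA dehydrogenase (adjusted p = 0.23), which was higher in 6 of 6 cows. With the cow as a block, ETFA, ACADS and ECI1 were called lower and none higher, against 9.27% and 6.94% of all tested genes. Other probes of this list were called. A second ACADS probe had a change of -0.57 (limma adjusted p = 0.0336). HADHA, the alpha subunit of the trifunctional protein, had 3 tested probes that disagreed, with changes of -0.03, 0.51 and 1.03, from the brightest to the dimmest, and the dimmest was called higher. That probe was above background on 5 of 6 CONT arrays and so was tested only through REST, where it was the brighter.

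In peroxisomal beta-oxidation, the pathway CROT serves, 10 of 12 genes were tested, 5 higher and 5 lower. SCP2, the gene of sterol carrier protein and of a peroxisomal thiolase, rose by 0.35 (limma adjusted p = 0.0769), higher in 6 of 6 cows. The call was lost when any one of cows 1, 2, 4, 5 and 6 was left out and under a median shift, normexp with the 75th percentile shift or no filter on dim probes, and over all its alternatives the adjusted p ran from 0.0112 to 0.367. Another of its tested probes had a change of 0.01.

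PPAR alpha is the fatty acid receptor under which CPT1A and SLC25A20 are known to be induced. Of 18 genes listed with it, 8 were tested and 2 were called higher, where 1.59% of all tested genes were. The change of KLF11 was known when it was listed. KLF11, a Kruppel-like transcription factor, rose from -0.39 ± 0.58 to 1.48 ± 0.58 (SD, n = 6), a change of 1.87 (limma adjusted p = 0.00774), higher in 6 of 6 cows though by only 0.08 in cow 5. ANGPTL4, a secreted inhibitor of lipoprotein lipase, rose by 1.55 (limma adjusted p = 0.0874) in 5 of 6 cows, with -0.60 in cow 5. Its call was lost when any one of cows 1, 2, 3, 4 and 6 was left out, under normexp with the 75th percentile shift, without the filter on dim probes and without moderation, with adjusted p from 0.0163 to 0.352 over all alternatives.

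PDK4, the kinase that restrains pyruvate dehydrogenase, had a change of 1.01 (adjusted p = 0.248), positive in 4 of 6 cows, and TXNIP one of 0.82 (adjusted p = 0.162), which was called with the cow as a block. PPARGC1A, a coactivator of the receptor, had a change of -0.85 (adjusted p = 0.22). PPARA itself was above background on 4 of 6 arrays of each group and was not tested.

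Among markers of the cell types a biopsy can hold, CLDN5, VWF and LPL were called without the block, where 1.59% of all tested genes were called higher and 2.81% lower. Of 7 endothelial markers, CLDN5 rose by 0.74 (limma adjusted p = 0.057) and VWF by 0.54 (limma adjusted p = 0.0541). The CLDN5 call was lost without any one of cows 1 to 4 and the VWF call without any one of cows 1, 2, 3 and 6. Both were also lost under a median shift or no filter on dim probes, and over all alternatives the adjusted p reached 0.286 and 0.29. The mean level of the 7 markers was 0.64 to 1.19 in CONT and 0.96 to 1.15 in REST. Of 10 adipocyte markers 3 were tested, and LPL, which the milk-secreting epithelium also expresses, fell by 1.102 (limma adjusted p = 0.0142), a call lost with no filter on dim probes. With the cow as a block FABP4 and CIDEA were called lower too, as were 9.27% of all tested genes. Of the untested ones CIDEC and PCK1 were above background on 4 of 6 arrays of each group, LEP on 2 of 6 and ADRB3 on 1 REST array, while PLIN1 and RETN were so on 0 arrays. The mean level of the tested adipocyte markers, LPL, CIDEA and FABP4, was 6.83 to 7.49 in CONT and 6.22 to 6.92 in REST. With LPL among them, this level is not read as fat cell content.

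Of 9 epithelial and milk markers 8 were tested, and of 10 macrophage and leukocyte markers 9, with 0 called in either direction in the limma fit without the block and 4 and 1 at an unadjusted p under 0.05 (16.9% of all tested genes). With the cow as a block the luminal keratins KRT8, with a change of 0.72, and KRT18, with 0.52, were called higher and the caseins CSN1S1 and CSN3, with -0.26 and -0.28, lower, and the T cell gene CD3E was called higher, against 6.94% of all tested genes called higher and 9.27% lower. Another KRT8 probe, also tested, had a change of -0.14, and a further one of 0.67. Under normexp with the 75th percentile shift the changes of CSN1S1 and CSN3 were -0.12 and -0.10, and those of KRT8 and KRT18 0.81 and 0.54. The mean level of the epithelial list was 6.52 to 6.93 in CONT and 6.61 to 7.04 in REST, and that of the leukocyte list 0.35 to 0.65 and 0.40 to 0.74. The part of these cell types in the changes of the shuttle genes was not tested.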

How the data were processed

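Per the file headers, the authors scanned 3 slides and extracted the spots with Agilent Feature Extraction 11. The deposited files give, per spot, a background-subtracted intensity on a linear scale, the median intensities of spot and background, and a call of well above background. The whole-series table equals these values cell by cell (45220 per array, relative tolerance 1e-05), so the percentile shift named in the study's methods had not been applied in it. Symbols were attached to 27131 of 43653 probes (62.2%) through RefSeq identifiers. The annotation build of the arrays differs from that of the gene table, so no coordinates are given, and probe sequences were not analysed here.

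Deposited intensities were taken to the log2 scale here, without marked spots (1 to 13 per array). Repeat spots (50 probes) were averaged and each array's 75th percentile was subtracted. No spot was saturated. The test of REST against CONT used limma 3.58.1 in R 4.3.3 (lmFit, eBayes), two-sided, with Benjamini-Hochberg adjustment over all tested probes and a threshold of 0.1. The study's methods name moderated tests at this threshold and no pairing. The script was tested on simulated data. A gene was represented by its tested probe of highest mean signal. Named genes were the 7 shuttle genes, at most 4 called genes of each list, genes that make up counts of 5 or fewer, and the 5 genes closest to CPT1A. Values of further list genes in the text, such as PDK4, MLYCD, ACADVL and HADHA, and of their other probes were chosen after their values were seen. The shuttle genes and all lists were chosen with earlier results of these data known, among them the changes of ACSS2, LPL, ACACA, ACSL1 and KLF11. Python 3.11.15 with pandas 2.3.3 and matplotlib 3.10.9 was used.

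The replicate numbers stand for labelled animals, so they pair the samples. Deviations from the group means correlated across probes with r from 0.356 to 0.574 within a cow and from -0.33 to 0.135 between cows. The number of arrays limits the precision. Alternatives covered the normalization, background correction, filter, marked spots, blocks, variance model and each cow left out.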

Additional observations from a re-analysis of the deposited data

Results flagged for a closer look

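The REST value of CROT in cow 6 was -1.12, while the other REST values lay between -2.19 and -1.86, and the gap to the nearest of them made up 0.693 of the group's range. Its CONT array did not reach the background criterion for this probe. The REST value of VWF in cow 4 was 2.27 against 2.73 to 2.83 in the other cows, a gap of 0.821 of the range. These are 2 of 48 groups of values examined, where chance gives about 1 in 20, or 2.4.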

How the results depend on the processing

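The deposited table, identical to the scanner values, is left out of these counts. Of 308 recomputed values, 252 held, and no called value (0) reversed. A count held if it stayed within 1.5 times of the reported one. The value of a gene held if it kept its direction and its side of the threshold or moved by less than the spread between replicates. Some alternatives, such as keeping marked spots, repeat the reported value of a gene, so this share does not measure stability. The uncalled SLC22A5 change turned from -0.09 to 0.03 without cow 2. The count of called probes, 836, was 474 with a median shift, 201 with normexp and the 75th percentile shift, 95 with no filter on dim probes, which adds tests, 1898 with the slide as a block, 3104 with the cow as a fixed replicate block and 3548 as a random one. Leaving out 1 cow gave 194 to 615, and 1045 to 3252 with the cow as a block. Without cows 1, 2, 3, 4 and 6 in turn, the count without the block moved by over 1.5 times (205, 282, 448, 194 and 556), as did the count with it without cows 1, 2 and 4 (1533, 1045 and 1205). Shuttle genes called were 1 with the filter on all 12 arrays, which left CPT1A untested, and 4 with either form of cow block and with the slide block, against 2. Genes called over the 6 related lists were 13 with the cow as a fixed block, 18 as a random block and 12 with the slide, against 6. The change of CPT1A was 0.72 and 0.81 under both normexp settings and that of CROT 0.14 under normexp with the 75th percentile shift. The normexp correction used median spot intensities. Under the scaling alternatives the median change of all tested probes stayed between -0.01 and 0.01. The probes of CPT1A, CPT1B and CROT were dim, which limits these genes, and their changes moved with the processing.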
